A study of Rattus norvegicus with 4 samples.

Results

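The motile cilium structural genes are a set of 49 genes whose products build, dock or assemble the moving core of the cilium. They were found by gene symbol, in any letter case, in the table of expression values, and a symbol with several rows was represented by the row with the highest mean over the 4 libraries. Of the 49 genes, 46 matched a row among 27832 features. RSPH3, CFAP53 and CAPS matched no row by symbol and were not analysed here. RSPH4A, a protein of the radial spoke head, had 2 rows, both listed at 0 in all 4 libraries. The other 45 genes averaged 1 FPKM or more, as did 15944 of all features. FPKM counts sequenced fragments per length of transcript and per size of library, so levels of different genes may be set side by side.

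The lining of the middle ear was scraped from Sprague-Dawley (SD) rats 1 week after 50 µL had been injected through the eardrum. The 4 groups were rats given medium without bacteria (media), methicillin-resistant Staphylococcus aureus (MRSA), Pseudomonas aeruginosa (PA) or a mixed culture of both species (MRSA + PA). Each group was represented by 1 library of poly(A) RNA, so every comparison set 1 library against 1 library, no spread between animals was measured and no test was made. Age and sex are not given in the labels, and the sources used here do not say how many animals a library represents.

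A motile cilium is driven by the axoneme, a ring of doublet microtubules around a central pair of single microtubules. Outer and inner dynein arms are the motors that slide the doublets, radial spokes and the central pair regulate them, and the nexin-dynein regulatory complex links neighbouring doublets. In the middle ear, ciliated cells move mucus towards the Eustachian tube, and inherited loss of many of these proteins causes primary ciliary dyskinesia, in which otitis media is common.

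With respect to media, the genes were on balance at the same level for MRSA, lower for PA and lowest for MRSA + PA. The summed level of the 45 genes was 863 FPKM for media, 858 for MRSA, 513 for PA and 461 for MRSA + PA, and the median level of a gene was 8.96, 9.08, 5.55 and 4.57 FPKM. A difference here is log2 of the ratio between 2 libraries, with 0.1 FPKM added to either value. The median difference from media was 0.05 for MRSA, -0.62 for PA and -1.01 for MRSA + PA, while the medians over all 15944 features were 0.05, 0.07 and 0.05. In bulk RNA, fewer ciliated cells and less RNA per ciliated cell cannot be told apart.

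The 2-fold counts gave the same order. In MRSA, 0 of the 45 genes were at least 2-fold higher than in media and 1 was at least 2-fold lower, beside 8.47% and 4.95% of all features. In PA, 0 genes were 2-fold higher and 7 were 2-fold lower, and the shares of all features were 10.0% and 7.80%. For MRSA + PA the counts were 0 higher and 23 lower, against a background of 7.78% and 7.83%. With 1 FPKM added in place of 0.1, which draws low levels together, 12 genes were lower. The 3 comparisons share the media library, so their counts are not independent of one another.

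The pairs of inoculated libraries do not use the media library. MRSA + PA was below MRSA for 45 of 45 genes, beside 51.4% of all features, with a median of -1.03. At least 2-fold lower were 25 of them and 0 were higher, where 5.73% of all features were lower and 1.61% higher. With 1 FPKM added, the 25 became 8. Between PA and MRSA the median was -0.57, and 7 genes were at least 2-fold lower in PA and 0 higher (background 5.03% and 3.54%). The step from PA to MRSA + PA was smaller, with a median of -0.41. A single gene, LDLRAD1, was at least 2-fold lower in MRSA + PA than in PA and 0 were higher, beside 4.27% and 2.50% of all features.

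Nearly all genes shared the library of lowest level and the next above it. MRSA + PA gave the lowest of the 4 values for 43 of the 45 genes (95.6%), whereas it did so for 20.9% of all features. For the same 43 genes, PA was also below both MRSA and media, an order that 9.48% of all features showed. After rescaling to equal FPKM sums, which raised the median of all features in PA over media from 0.07 to 0.24, that full order was counted for 37 genes and MRSA + PA was lowest for 43. The exceptions were ZMYND10, which was lowest in media, and TPPP3, which was lowest in PA. The highest value was in media for 21 genes (46.7%, beside 29.0% of all features) and in MRSA for 24 (53.3%, beside 18.7%).

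**Figure D1:**
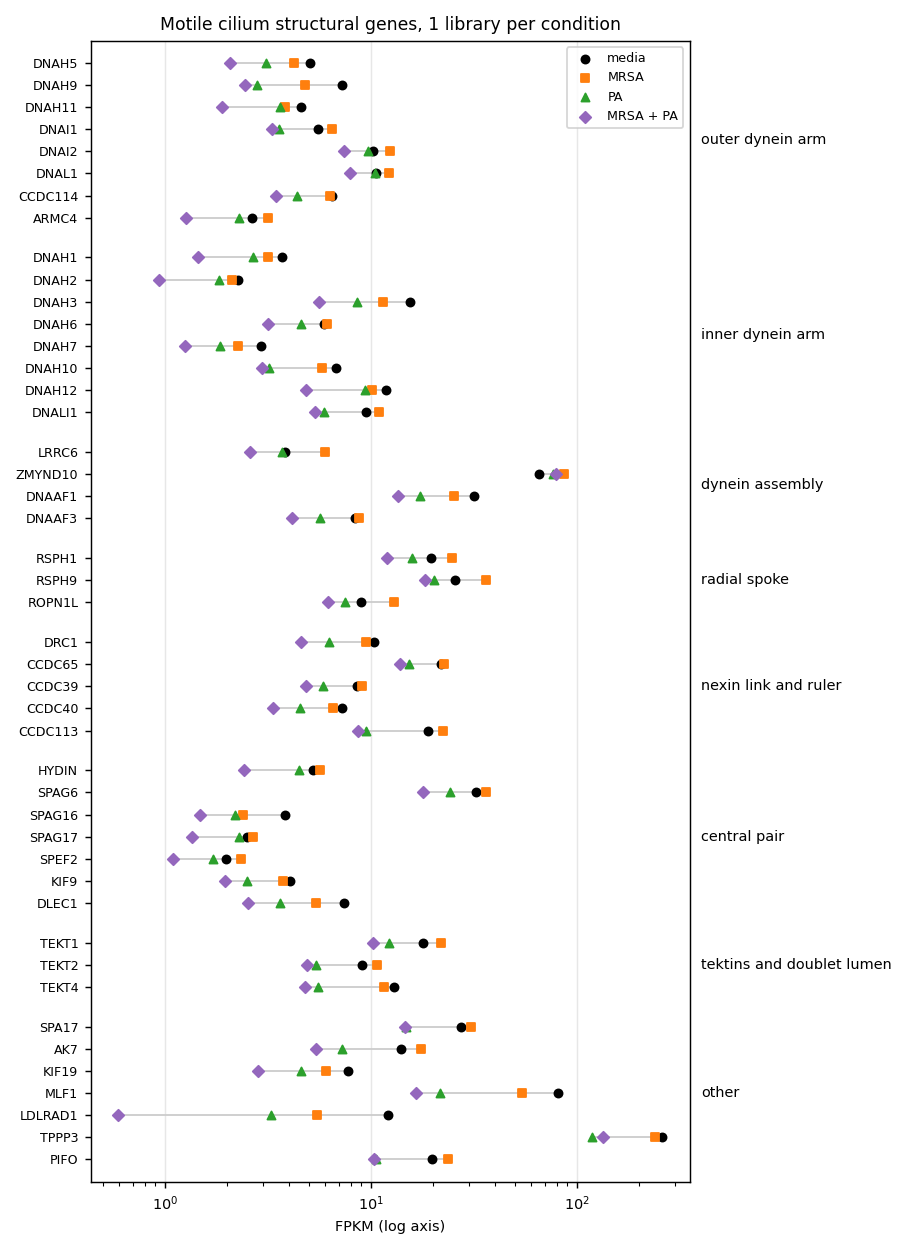
FPKM on a log axis for the 45 genes that averaged 1 FPKM or more, 1 row per gene ordered by structural group, with 1 marker per library (media, MRSA, PA, MRSA + PA) and a grey line from the lowest to the highest value. The diamond of MRSA + PA stands leftmost in 43 of the 45 rows, the triangle of PA lies between it and the other 2 libraries, and ZMYND10 and TPPP3 are the exceptions.

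Promoters of the genes were read for the letters of known sites. RFX factors, which switch on ciliary genes, bind the X-box, and FOXJ1 is a forkhead factor of motile ciliated cells. Promoters of 37 of the 49 genes were found in RefSeq (build GRCr8), each a window of 300 bases that runs to shortly after the start site. One arm of the X-box, GTTGCC, searched on both strands, occurred in 16 of the 37 (43.2%) and in 13.1% of all 27457 genes of the same table. GTTGCC followed by GGNAAC after 0 to 3 bases was present in 1 of 37 (2.70%) and in 0.714% of all genes. The forkhead letters TGTTTAC were found in 3 of 37 (8.11%, against 4.13% of all genes) and TGTTTGT in 4 of 37 (10.8%, against 6.88%). One of the 16 promoters, that of SPAG6, belongs to a locus on chromosome 17, while the expression row used for SPAG6 lies on chromosome 11. A match describes the letters of the window and was not tested for binding.

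The promoters below are shown because DLEC1, TEKT4, DNAH10 and MLF1 hold these letters and lay 2-fold or more below media in PA as well as in MRSA + PA, and because ROPN1L holds the paired form. Capitals mark GTTGCC, or GGCAAC where the match is on the other strand. In GRCr8 they lie at chr8:127703988-127704287 (+) for DLEC1, chr10:14992034-14992333 (+) for TEKT4, chr12:37607759-37608058 (-) for DNAH10, chr2:153958341-153958640 (+) for MLF1 and chr2:84164167-84164466 (-) for ROPN1L. Each is printed 5′ to 3′ in the direction of its gene.

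DLEC1: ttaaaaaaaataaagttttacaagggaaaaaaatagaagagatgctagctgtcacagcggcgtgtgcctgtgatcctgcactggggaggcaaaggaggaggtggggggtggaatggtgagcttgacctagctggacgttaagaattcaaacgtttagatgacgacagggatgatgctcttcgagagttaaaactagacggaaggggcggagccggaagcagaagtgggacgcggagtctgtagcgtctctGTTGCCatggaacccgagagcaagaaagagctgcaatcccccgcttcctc
TEKT4: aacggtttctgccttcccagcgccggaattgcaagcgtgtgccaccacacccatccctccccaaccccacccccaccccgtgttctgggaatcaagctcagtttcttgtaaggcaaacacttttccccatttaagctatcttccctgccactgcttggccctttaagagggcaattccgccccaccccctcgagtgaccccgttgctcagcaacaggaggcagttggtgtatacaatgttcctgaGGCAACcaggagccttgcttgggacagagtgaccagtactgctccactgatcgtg
DNAH10: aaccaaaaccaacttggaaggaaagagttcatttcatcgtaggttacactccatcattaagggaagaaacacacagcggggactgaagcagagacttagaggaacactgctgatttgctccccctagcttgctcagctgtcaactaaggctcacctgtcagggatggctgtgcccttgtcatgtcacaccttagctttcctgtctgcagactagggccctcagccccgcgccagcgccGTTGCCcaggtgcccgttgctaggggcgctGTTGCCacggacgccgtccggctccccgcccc
MLF1: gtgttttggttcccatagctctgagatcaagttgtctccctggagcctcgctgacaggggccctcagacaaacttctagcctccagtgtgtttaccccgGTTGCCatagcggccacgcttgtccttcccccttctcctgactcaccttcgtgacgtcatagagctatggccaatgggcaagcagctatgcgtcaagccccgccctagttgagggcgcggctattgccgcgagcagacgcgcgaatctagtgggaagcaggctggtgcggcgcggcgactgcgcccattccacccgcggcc
ROPN1L: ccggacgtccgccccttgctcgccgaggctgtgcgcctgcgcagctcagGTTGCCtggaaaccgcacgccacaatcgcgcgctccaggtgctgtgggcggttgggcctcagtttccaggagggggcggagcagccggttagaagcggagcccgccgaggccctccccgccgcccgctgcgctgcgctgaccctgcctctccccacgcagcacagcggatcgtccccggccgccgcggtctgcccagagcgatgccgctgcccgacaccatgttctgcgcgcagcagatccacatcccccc

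Counted from the start site as base 1, GTTGCC or its reverse complement began at base 1 in DLEC1, at -5 in TEKT4, at -12 and 19 in DNAH10, at -151 in MLF1 and at -201 in ROPN1L. In ROPN1L the letters that follow the capitals, after 1 further base, are the GGNAAC of the paired form.

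The outer dynein arm, the motor that sets beat frequency, was represented by 8 genes, all past the filter. Its median difference from media was 0.08 for MRSA, -0.44 for PA and -0.95 for MRSA + PA, and 4 of 8 genes were at least 2-fold lower in MRSA + PA. DNAH5, a heavy chain, had 5.05 FPKM for media, 4.25 for MRSA, 3.11 for PA and 2.08 for MRSA + PA. DNAH9, the heavy chain of the distal cilium, had 7.24, 4.81, 2.80 and 2.46 FPKM in the same order. DNAH9 was thus the outer arm gene furthest below media in each of the 3 inoculated libraries, with differences of -0.58, -1.34 and -1.52. The intermediate chain DNAI1 was at 5.56 FPKM for media, 6.50 for MRSA, 3.58 for PA and 3.32 for MRSA + PA.

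Other outer arm genes were close to media in PA. DNAI2, another intermediate chain, had 10.3, 12.4, 9.73 and 7.44 FPKM, libraries in the order above, and DNAL1, a light chain, was at 10.6, 12.3, 10.6 and 7.96 FPKM. Their differences in PA were -0.08 and -0.01, and in MRSA + PA -0.46 and -0.41, the smallest among the 8. The docking factors differed from each other: ARMC4 had 2.64, 3.17, 2.29 and 1.26 FPKM and was 1.01 log2 units below media in MRSA + PA, while CCDC114 had 6.52, 6.34, 4.39 and 3.49 FPKM and was 0.88 below.

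Inner dynein arms shape the bend of the cilium, and their 8 genes had a median of -0.22 for MRSA, -0.54 for PA and -1.17 for MRSA + PA. Of the 8, 6 were at least 2-fold lower than media in MRSA + PA and 1, DNAH10, in PA. DNAH12 was at 11.9, 10.1, 9.38 and 4.83 FPKM, again in the order media, MRSA, PA, MRSA + PA. DNAH10 had 6.78, 5.78, 3.22 and 2.97 FPKM. The drop of DNAH12 lay mostly between PA and MRSA + PA (-0.94), whereas that of DNAH10 lay between MRSA and PA (-0.83) and its last step was -0.11. DNALI1, an inner arm light intermediate chain, had 9.53 FPKM for media, 11.0 for MRSA, 5.95 for PA and 5.34 for MRSA + PA.

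The other heavy chains held the same order of PA above MRSA + PA. DNAH11, of the outer arm, was at 4.60, 3.82, 3.64 and 1.89 FPKM, and among inner arm chains DNAH1 was at 3.70, 3.16, 2.69 and 1.45 FPKM and DNAH2 at 2.26, 2.13, 1.83 and 0.940 FPKM. DNAH6 was at 5.94, 6.15, 4.60 and 3.17 FPKM and DNAH7 at 2.93, 2.27, 1.86 and 1.26 FPKM. DNAH6 was the 1 heavy chain above media in MRSA (0.05) and the 1 less than 2-fold below media in MRSA + PA (-0.89).

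Some heavy chains have several rows in the table. DNAH7 has a second row with 1.65, 1.67, 0.584 and 0.568 FPKM. The second row of DNAH11, with 0.795, 0.807, 0.893 and 0.566 FPKM, was above media in MRSA and in PA. DNAH3 has 5, of which the row used spans 8223 bases and had 15.5, 11.4, 8.60 and 5.58 FPKM, and MRSA + PA was below media in all 5. The row of 27484 bases was lowest in PA, at 3.57, 2.87, 1.16 and 2.20 FPKM. The row used covers 0.0476 of the RefSeq span and overlaps THUMPD1 on the same strand, so its values may include reads of that gene, which was not tested. DNAH10 has a second row of 1013 bases with 10.8, 1.09, 1.82 and 0 FPKM. When all rows of a symbol were summed, the difference of DNAH10 from media was -1.35 for MRSA, -1.79 for PA and -2.53 for MRSA + PA, in place of -0.23, -1.05 and -1.17 for the row used.

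Across both arms, heavy chains and the other arm genes were set apart after their values were seen. The 10 heavy chains, which are the motor subunits, had medians of -0.24, -0.54 and -1.24 in MRSA, PA and MRSA + PA, and the 6 other chains and docking factors 0.22, -0.38 and -0.77. In MRSA, 9 of 10 heavy chains were below media and 5 of 6 other genes above it, where 44.5% of all features were below. At least 2-fold lower in MRSA + PA were 9 of 10 heavy chains and 1 of 6 others. Most heavy chains are at a low level: with 1 FPKM added in place of 0.1, the count was 3 of 10 and 0 of 6, and the medians were -0.96 and -0.64.

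Dynein arms are put together in the cytoplasm before they enter the cilium, and 4 genes of this assembly step were measured. DNAAF1 was at 31.9 FPKM for media, 25.4 for MRSA, 17.4 for PA and 13.5 for MRSA + PA. DNAAF3 was at 8.36, 8.81, 5.67 and 4.16 FPKM, and LRRC6 (also named DNAAF11) at 3.84, 6.01, 3.70 and 2.61 FPKM. These 3 genes were lowest in MRSA + PA, and LRRC6 had the largest excess of MRSA over media of all 45 genes (0.63). ZMYND10, which acts with LRRC6, was at 65.9, 87.1, 76.8 and 79.5 FPKM and above media in all 3 inoculated libraries. The row of ZMYND10 spans 6.23 times the length of the gene in RefSeq, and its RefSeq neighbours RASSF1, NPRL2 and TMEM115 have no row of their own, so its values may include reads of other genes, which was not tested.

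The radial spokes, which carry signals from the central pair to the dynein arms, stood highest in MRSA. RSPH1, of the spoke head, was at 19.6 FPKM for media, 24.7 for MRSA, 15.9 for PA and 12.0 for MRSA + PA. RSPH9, also of the head, was at 25.6, 36.4, 20.3 and 18.4 FPKM, and ROPN1L, a protein of the stalk, at 8.96, 13.0, 7.50 and 6.20 FPKM. All 3 were above media in MRSA (0.33, 0.51 and 0.53) and none was 2-fold below media in MRSA + PA, where the median of the group was -0.53. Set against MRSA instead, their median in MRSA + PA was -1.04, close to the -1.03 of all 45 genes.

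**Figure D2:**
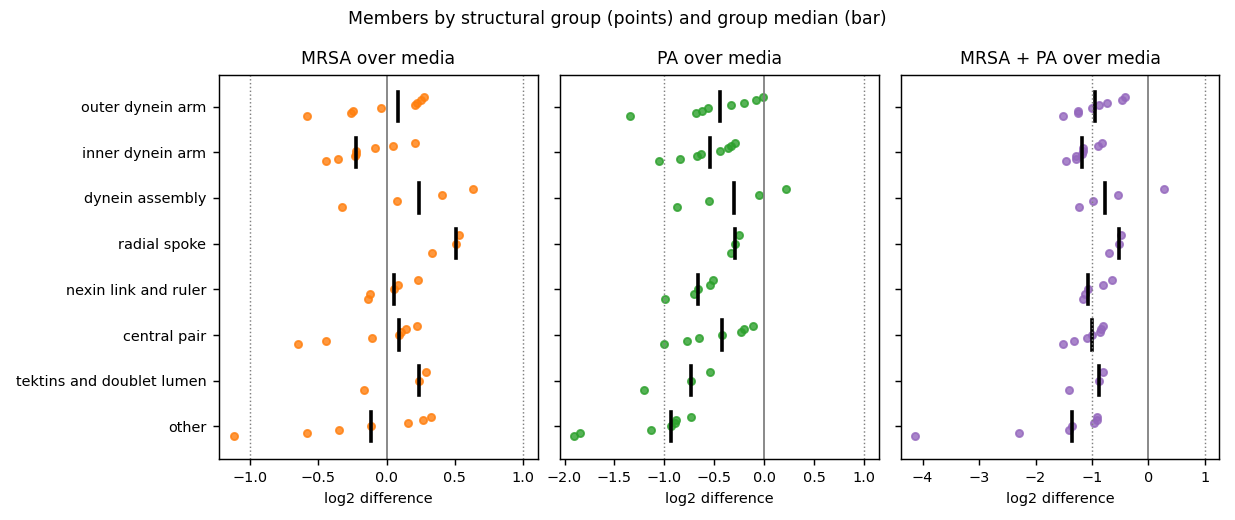
Log2 difference from media of each gene (points) by structural group, in 3 panels for MRSA, PA and MRSA + PA, with a black bar at the group's median, dotted lines at a 2-fold difference, and a different axis range in each panel. Medians in MRSA + PA run from -0.53 for the radial spokes to -1.35 for the mixed group with LDLRAD1 included. In MRSA the 3 radial spoke genes lie to the right of 0.

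The nexin link and the ruler proteins that space the arms had medians of 0.05, -0.66 and -1.08, and 3 of 5 were at least 2-fold lower than media in MRSA + PA. DRC1, a core protein of the nexin-dynein regulatory complex, was at 10.3 FPKM for media, 9.52 for MRSA, 6.29 for PA and 4.57 for MRSA + PA. The ruler proteins CCDC39 and CCDC40 work as a pair. CCDC39 had 8.58, 9.08, 5.84 and 4.85 FPKM, and CCDC40 7.22, 6.58, 4.52 and 3.37 FPKM. Both were below media in PA and further below it in MRSA + PA (-0.81 and -1.08). CCDC113, a protein of the axoneme, was at 19.0, 22.3, 9.47 and 8.65 FPKM, and at -1.23 it was the gene of this group furthest below MRSA in PA. CCDC65, another protein of the regulatory complex, had 22.0, 22.8, 15.4 and 13.9 FPKM from a row on chromosome X, whereas RefSeq places the gene on chromosome 7.

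The central pair, with its projections, was represented by 7 genes with medians of 0.09 for MRSA, -0.43 for PA and -1.01 for MRSA + PA. HYDIN, a very large protein of a central pair projection, was at 5.27, 5.69, 4.47 and 2.44 FPKM, in the order media, MRSA, PA, MRSA + PA. SPAG17 was at 2.50, 2.67, 2.298 and 1.35 FPKM and SPEF2 at 1.99, 2.34, 1.72 and 1.10 FPKM. For these 3 genes the step from PA to MRSA + PA (-0.85, -0.72 and -0.61) was larger than that from MRSA to PA (-0.34, -0.21 and -0.42). Their low levels make such values depend on the amount added. Their differences from media in MRSA + PA were -1.08, -0.84 and -0.81, and -0.87, -0.57 and -0.51 with 1 FPKM added. DLEC1 went from 7.40 FPKM in media to 5.43 for MRSA, 3.64 for PA and 2.53 for MRSA + PA, the largest difference of the group in MRSA + PA (-1.51).

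SPAG16, a partner of SPAG6, was at 3.83 FPKM in media and at 2.40, 2.19 and 1.48 FPKM in the inoculated libraries. Its largest step was that from media to MRSA (-0.65). The row used for SPAG6 had 32.6, 36.1, 24.3 and 18.0 FPKM and lies on chromosome 11, where RefSeq lists the related gene Spag6l. The second row named SPAG6, on chromosome 17 as in RefSeq, was at most 0.191 FPKM in any library. KIF9, a kinesin of the central pair, was at 4.04, 3.75, 2.52 and 1.96 FPKM.

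Tektins are filament proteins inside the wall of the doublets. TEKT1 was at 18.0 FPKM for media, 22.0 for MRSA, 12.3 for PA and 10.3 for MRSA + PA, and TEKT2 at 9.06, 10.7, 5.40 and 4.91 FPKM. TEKT4 had 12.9, 11.5, 5.55 and 4.82 FPKM. In this group, PA was already near MRSA + PA, with a median step of -0.20 between them and of -0.97 from MRSA to PA. TEKT4 was at least 2-fold below media in PA (-1.21) and in MRSA + PA (-1.41).

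The remaining genes are ciliary or flagellar proteins of mixed function, and this group had the lowest medians in PA (-0.94) and in MRSA + PA (-1.35). The rank in MRSA + PA depends on LDLRAD1, whose row is of uncertain locus. MLF1 was at 81.6 FPKM for media, 54.5 for MRSA, 21.8 for PA and 16.5 for MRSA + PA. Its difference in PA (-1.90) was the largest of the 45 genes, and the part of other cell types in its level was not tested. The row of MLF1 spans 2.99 times the RefSeq gene and overlaps RSRC1 on the same strand, a gene with 29.0, 22.5, 25.04 and 25.4 FPKM. LDLRAD1, a membrane protein of the LDL receptor class A type, went from 12.1 FPKM in media to 5.51 for MRSA, 3.28 for PA and 0.594 for MRSA + PA. It had the largest difference in MRSA + PA (-4.13) and was the 1 gene at least 2-fold lower in MRSA, but its row lies on chromosome 2 and the RefSeq gene on chromosome 5.

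AK7, an adenylate kinase of the cilium, was at 14.0 FPKM for media, 17.5 for MRSA, 7.26 for PA and 5.41 for MRSA + PA. The kinesin KIF19, which limits the length of cilia, had 7.73, 6.05, 4.60 and 2.85 FPKM. KIF19 has 3 rows, and those on chromosome 12, not used here, were at most 1.08 FPKM in any library. SPA17 was at 27.6, 30.8, 14.8 and 14.6 FPKM and PIFO at 19.8, 23.8, 10.7 and 10.4 FPKM. For SPA17 and PIFO the values in PA and in MRSA + PA were nearly equal, with steps of -0.01 and -0.03. TPPP3, a tubulin-binding protein and the most abundant of the 45, was at 260.5, 240.3, 119 and 134 FPKM and was at least 2-fold below media in PA (-1.13) but not in MRSA + PA (-0.96).

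Without ZMYND10, LDLRAD1, SPAG6 and CCDC65, whose rows are of uncertain locus, the medians of the other 41 genes were 0.05, -0.63 and -1.01 in MRSA, PA and MRSA + PA. The numbers at least 2-fold lower than media were then 0, 6 and 22. Of the 41 genes, 41 were below media in PA and 41 in MRSA + PA, beside 44.3% and 44.9% of all features. The rows of 14 of the 45 genes overlap another feature, and whether counting used strand is not given in the sources used here. Among the 31 genes with no such overlap, MRSA + PA was the lowest library for 30.

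**Figure D3:**
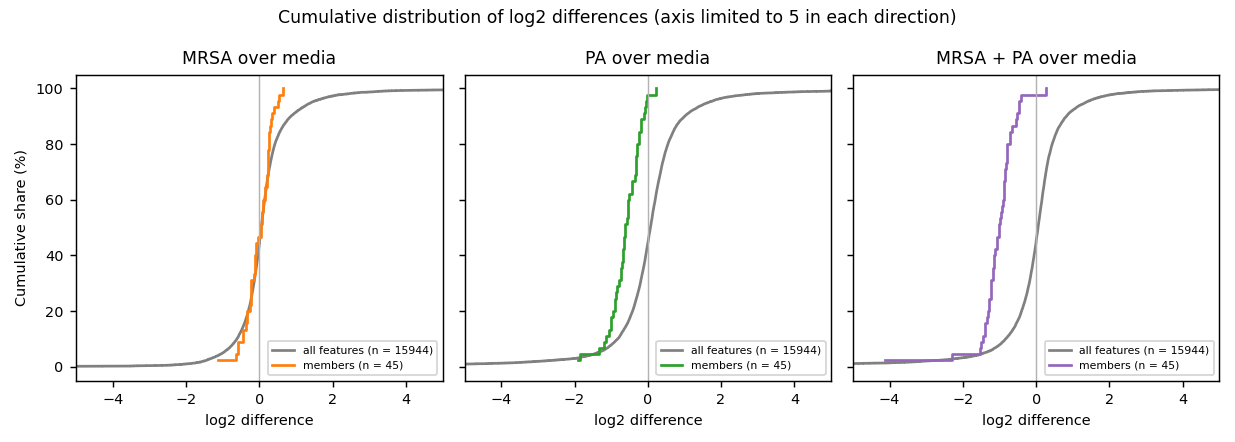
Cumulative share (%) of the 45 genes (coloured steps) and of all 15944 features (grey line) against the log2 difference from media, in 3 panels for MRSA, PA and MRSA + PA, with axes limited to 5 in each direction. The steps lie about 0 in MRSA (median 0.05) and to the left of the grey line in PA (median -0.62) and in MRSA + PA (median -1.01).

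Genes outside the set showed how far the pattern extended. Of 91 other motile cilium genes, 63 averaged 1 FPKM or more, with medians of 0.15, -0.51 and -0.82 in MRSA, PA and MRSA + PA. At least 2-fold lower were 0, 7 and 21 of them, beside 4.95%, 7.80% and 7.83% of all features. DYNLRB2, a dynein light chain and the most abundant of these, was at 178.5 FPKM for media, 203 for MRSA, 98.5 for PA and 88.7 for MRSA + PA. DNAH17, a heavy chain known from sperm, has 2 rows. The row used was listed at 0 in media, PA and MRSA + PA and at 7.41 FPKM in MRSA, and the other row is not described here. TEKT3 was at 8.46, 4.44, 1.98 and 2.94 FPKM, C21ORF59 at 40.7, 51.2, 33.9 and 39.8 FPKM, and FAM183B at 58.4, 69.9, 33.1 and 30.8 FPKM.

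Genes of intraflagellar transport and of the primary cilium, which many cell types use, differed less. The medians of 51 of these were -0.04, -0.21 and -0.29, and 0 were at least 2-fold from media in any library. IFT20, of the transport train, was at 53.8, 49.6, 41.2 and 49.5 FPKM, and IFT27 at 36.1, 36.1, 20.96 and 24.1 FPKM. IFT46 was at 44.1, 42.5, 36.4 and 35.9 FPKM, ARL3, a small GTPase of cilia, at 49.8, 43.2, 31.5 and 40.2 FPKM, and B9D1, of the transition zone, at 5.22, 2.98, 5.29 and 3.66 FPKM.

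Most regulators of ciliated cells were also lowest in MRSA + PA, 8 of 11, beside 20.9% of all features, and these 8 were below media there. The medians over media of the 11 were 0.45 for MRSA, 0.26 for PA and -0.22 for MRSA + PA, and the medians of MRSA + PA were -0.68 over MRSA and -0.53 over PA. The 3 exceptions were CCNO, PLK4 and STIL, which was named after its values were seen. FOXJ1, the main transcription factor of motile cilia, was at 23.0 FPKM for media, 34.0 for MRSA, 22.0 for PA and 16.6 for MRSA + PA. CCNO, which acts when centrioles multiply, was at 0.469 FPKM in media and at 6.09, 6.48 and 3.29 in the 3 inoculated libraries. PLK4, a kinase of centriole duplication in dividing cells as well, was at 1.11, 4.16, 3.84 and 3.86 FPKM. CCDC67 (DEUP1), of the deuterosome, was at 4.82, 9.71, 5.79 and 4.12 FPKM, whereas CCDC78 was at 16.3, 14.1, 8.01 and 6.68 FPKM. STIL, a centriole protein, was at 0.373, 1.34, 1.52 and 0.868 FPKM, so all 3 exceptions were higher than media in each inoculated library. MRSA + PA was also lowest for 48 of 63 other motile cilium genes and 28 of 51 intraflagellar transport and primary cilium genes. Outside cilia it was lowest for 15 of 17 skeletal muscle, 7 of 10 tendon, 7 of 13 secretory, 4 of 13 epithelial and 3 of 10 Schwann cell genes.

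**Figure D4:**
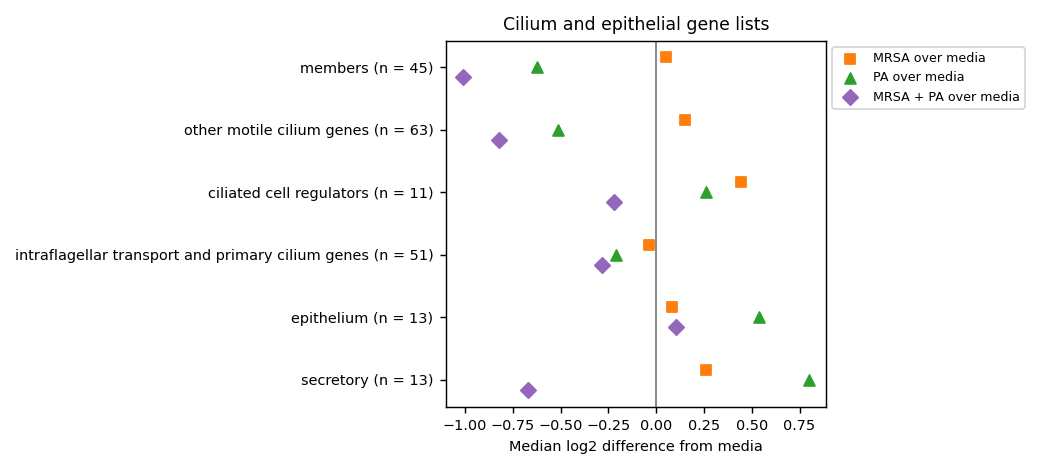
Median log2 difference from media of the 45 genes and of 5 other lists, with 1 marker per inoculated library and the number of genes past the filter in brackets. In MRSA + PA the structural genes (-1.01) and the other motile cilium genes (-0.82) lie furthest to the left, intraflagellar transport and primary cilium genes lie at -0.29, and the epithelial list lies at 0.10.

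The levels of other cell types also differed between libraries. The 13 genes of the epithelial list had medians of 0.08, 0.54 and 0.10, and their summed level ran from 840 FPKM in media to 1045 in PA. EPCAM, an epithelial marker, was at 237, 266, 254 and 222 FPKM, above media in PA and below it in MRSA + PA. CDH1 was at 38.6, 57.3, 99.4 and 64.9 FPKM, KRT8 at 76.1, 96.2, 111 and 103 FPKM, KRT7 at 12.9, 23.4, 60.4 and 45.4 FPKM, and CLDN4 at 185, 139, 168 and 164 FPKM. The secretory list (13 genes) had medians of 0.26, 0.80 and -0.67. SCGB1A1 was at 248 FPKM for media, 807 for MRSA, 1537 for PA and 1000.0 for MRSA + PA, and BPIFA1 at 25720.0, 11120.0, 7472 and 13360.0 FPKM. The secretory genes went both ways from media. Past the 2-fold limit, 5 rose and 4 fell in MRSA, while 6 rose and 3 fell in PA. In MRSA + PA, SCGB1A1 was the 1 that rose and 3 fell. WFDC2 was at 542, 642, 800.5 and 537 FPKM, SCGB3A1 at 2.90, 0, 1.41 and 0.558 FPKM, and TFF3 at 0.246, 0.888, 6.87 and 0.230 FPKM.

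Genes of skeletal muscle, Schwann cells and tendon had their highest summed level in the media library. The summed level of 17 skeletal muscle genes was 9313 FPKM for media, 3650.0 for MRSA, 25.8 for PA and 20.6 for MRSA + PA. Their medians were -1.55, -8.88 and -9.22. In all 3 inoculated libraries 17 of 17 lay 2-fold or more below media, beside 4.95%, 7.80% and 7.83% of all features. The rows used for MYH4, MYH7 and TTN were listed at 0 in MRSA + PA and in no other library. TTN has 16 rows, of which only the row with the highest mean was used. MYLPF had 1948, 830.0, 1.47 and 0.580 FPKM, and TNNC2, MB and CKM stood in the same order. The 10 Schwann cell genes had medians of -1.02, -1.18 and -1.20, and the 10 tendon genes -0.94, -2.07 and -2.86, with COL1A1 at 3463, 1872, 1704 and 1171 FPKM. The part of these tissues in the lower levels of the structural genes was not tested. With 1 library per condition, differences in the share of these tissues cannot be told apart from differences between conditions.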

How the data were processed

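RNA of the middle ear mucosa was measured in 4 libraries, 1 for each condition, with conditions taken from the labels. The treatment text in the labels is the same for all samples and names MRSA alone. The deposited table gives FPKM per feature, computed by the authors from mapped reads; the submitters' processing notes name STAR 2.3.0e, Cufflinks 2.1.1 and edgeR. Whether counting used strand is not given in the sources used here. The table names no genome build, and a human reference is named in the methods of the paper, whereas the chromosomes of the features are those of the rat; which reference the rows come from was not settled here, so features are placed by chromosome only. The 3 further tables hold the authors' own comparisons (scaled values, log2 ratios, p-values and q-values) and were not used.

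The paper gives read totals of the libraries, but the number of reads behind each value cannot be had from FPKM, so no intervals are given. With 1 library per condition no test was made. A log2 difference was computed after 0.1 FPKM was added to both libraries, for features averaging 1 FPKM or more, and genes 2-fold or more apart were counted. The genes and lists were chosen with earlier results of these data known; 3 genes of the highest mean and 2 of the largest difference per list could be named, and MYH4, MYH7, TTN and RSRC1 were added to these once their values had been seen. Symbols of 48 of the 49 genes matched RefSeq, 42 on the chromosome of the table and 3 on another.

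Alternatives were 1 or 0.01 FPKM added, no filter or a 5 FPKM filter on the mean, median-of-ratios scaling, equal FPKM sums over features of at least 300 bp, all rows of a symbol summed, and 1.5-fold or 4-fold limits. Genes of uncertain locus, and genes whose row overlaps another feature, were left out as alternatives added after the data were seen. The arithmetic was tested on simulated data. Python 3.11.15, numpy 2.4.6, pandas 2.3.3 and matplotlib 3.10.9 were used.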

Additional observations from a re-analysis of the deposited data

How the results depend on the processing

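The median difference of the 45 genes stayed between -1.06 and -0.86 for MRSA + PA over media, between -0.69 and -0.46 for PA over media, between -1.05 and -0.87 for MRSA + PA over MRSA and between -0.54 and -0.34 for MRSA + PA over PA in all alternatives. That of MRSA over media turned from 0.05 to -0.0032 under median-of-ratios scaling, as did that of the nexin link and ruler group, -0.0032 with the same gene at the middle. With 1 FPKM added, the median for MRSA + PA over media went from -0.95 to -0.72 in the outer arm. It went from -1.17 to -0.87 in the inner arm, which then lay above the nexin link and ruler group (-0.91). With the 5 FPKM filter, 4 group medians shifted by 0.2 or more. Counts at least 2-fold lower were less firm, since many genes lie near 2-fold. With 1 FPKM added, MRSA + PA was 2-fold lower for 12 genes against media and for 8 against MRSA. At a mean of at least 5 FPKM, 28 genes were left, of which 4 were 2-fold lower in PA than in media and 11 in MRSA + PA, MRSA + PA was lowest for 26, all in the order described, and media highest for 11; fewer genes enter by construction. With equal FPKM sums, 4 genes each were lower for PA against media, MRSA + PA against PA and PA against MRSA. With summed rows, 2 genes were lower in MRSA than in media. Without the genes of uncertain locus, 0 were lower in MRSA against media, 0 in MRSA + PA against PA, and media was lowest for 0, as it was without overlapping genes (0 of 31). At 1.5-fold, 2 genes were lower and 1 higher in MRSA than in media, 23 lower in PA and 39 in MRSA + PA, 44 lower for MRSA + PA against MRSA, 11 for MRSA + PA against PA and 21 for PA against MRSA. At 4-fold, 0 genes were lower for MRSA, 0 for PA and 2 for MRSA + PA against media, 1 in MRSA + PA against MRSA and 0 in PA against MRSA. The shares of all features at these other limits, filters and scalings were not computed, so these counts have no background beside them. The causes of these shifts were not tested beyond their construction. No paired analysis was possible because each condition has 1 library.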
